A study of Mus musculus with 3 samples.

Results

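Cadherins, protocadherins and their catenin and plaque partners were examined in renal glomeruli of 3 male FVB/NJ mice, nondiabetic and 8 weeks old. The members were chosen by gene symbol in the platform annotation, with no filter on their values but with earlier results of these data known. They were every numbered Cdh gene, every Pcdh gene, Ctnna1, Ctnna2, Ctnna3, Ctnnb1, Ctnnd1, Ctnnd2, Jup, Dsp, Dsg2, Dsc2, Pkp2 and Pkp4. This gave 68 of the 18193 genes named by at least 1 probe set of their own, read by 134 probe sets (21 cadherins, 35 protocadherins and 12 catenin or desmosome genes). RNA of each mouse came from its own pool of glomeruli and was hybridised to 1 Affymetrix array, so each of the 3 arrays is a separate animal (mouse 1, mouse 2 and mouse 3). FVB is the nondiabetic control strain in a study of diabetic OVE26 mice. OVE26 mice were not analysed here, so the data give levels in control glomeruli and the spread between control mice, with no comparison between groups.

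Cadherins are membrane proteins that hold neighbouring cells together by calcium-dependent binding of their extracellular repeats. Classical (type I) and type II cadherins bind beta-catenin or plakoglobin through the far part of their cytoplasmic tail and p120-catenin through the near part, and alpha-catenin joins the complex to actin. Protocadherins share the extracellular repeats but lack these catenin-binding sequences. In the kidney, endothelial, mesangial and tubular cells each carry their own cadherins, and the podocyte slit diaphragm is viewed as a modified adherens junction.

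Values are log2 expression values, so a difference of 1 is a 2-fold difference, and errors are SD over the 3 mice (n = 3). Levels of different probe sets cannot be ranked against each other. A gene counted as above background when its brightest probe set exceeded, on each of the 3 arrays, the 95th percentile of 80 olfactory and vomeronasal receptor probe sets, at 2.58, 2.91 and 2.86 for mice 1, 2 and 3. The arrays matched closely over all genes above background, with Pearson's r of 0.984 to 0.988 across genes, which are not independent replicates. All 7 podocyte, all 10 endothelial and all 7 mesangial marker genes with a probe set of their own were above background, as were 11 of 12 proximal tubule genes. Tubule and leukocyte markers ranged widely over the isolates: all 11 proximal tubule genes above background had a 2-fold range over the mice, as did all 6 loop, distal and collecting duct genes and 6 of 8 leukocyte genes. In such bulk RNA, fewer cells of a type and less RNA per cell cannot be told apart.

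Of the 68 members, 25 (36.8%) were above background in all mice, against 58.3% of all 18193 genes. Another 9 were above it in 1 or 2 mice and 34 in none. By family, 7 of 12 catenin and desmosome genes, 8 of 21 cadherins and 10 of 35 protocadherins were above background. The number of members above background was 24 to 28 under the other settings tried.

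**Figure D1:**
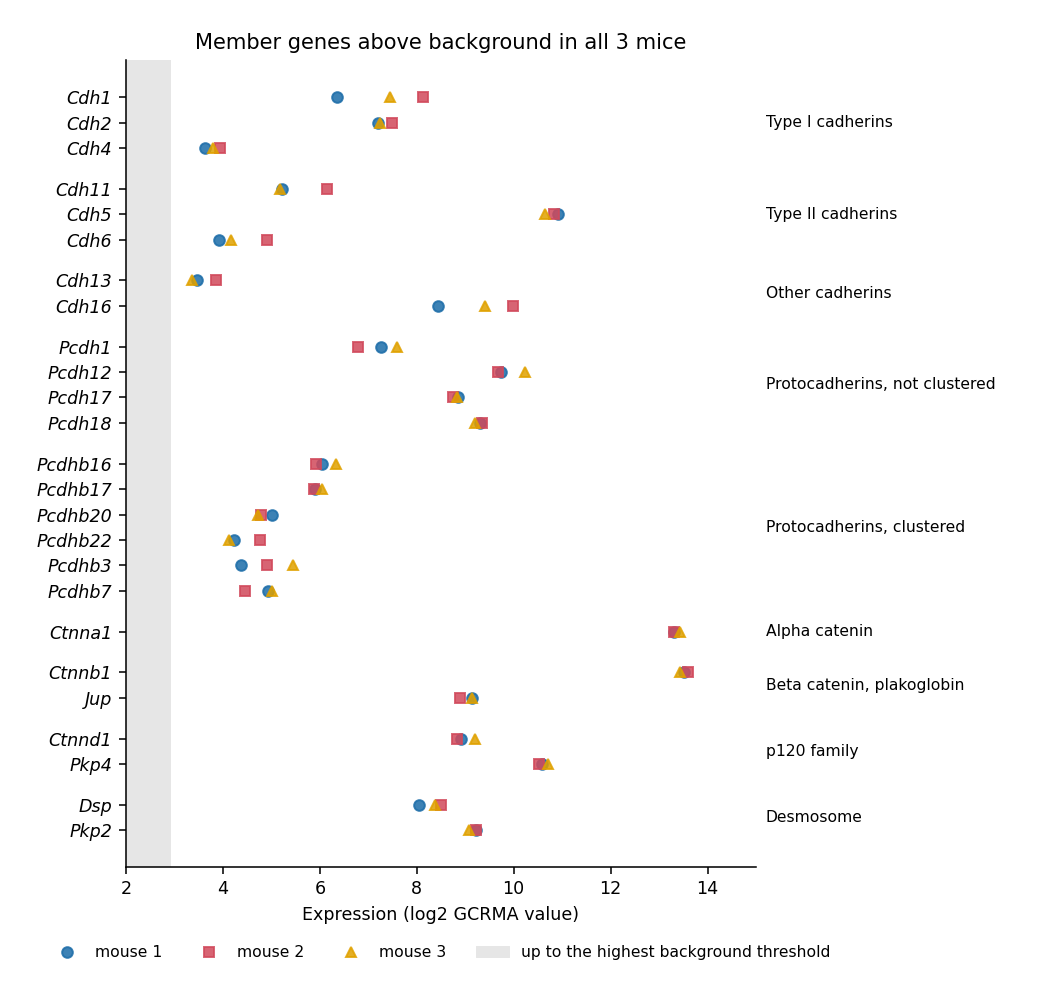
Expression (log2 GCRMA value) of the 25 member genes above background in all 3 mice, grouped by role, with 1 point per mouse and the background range shaded in grey. The points of Ctnnb1, Ctnna1 and Pkp4 nearly coincide, while those of Cdh1 and Cdh16 lie more than 1 log2 unit apart between mice 1 and 2.

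The ubiquitous catenins were measured in every mouse, and their neuronal or heart and testis paralogs were below background. Ctnnb1, which encodes beta-catenin, was at 13.51, 13.61 and 13.44 in mice 1, 2 and 3. Its other probe sets were above background as well, at 10.29, 10.01 and 9.59 for one and 5.12, 5.61 and 4.76 for the other, so the mice lay within 1 log2 unit of each other on every probe set. Jup, which encodes plakoglobin, the relative of beta-catenin found in both adherens junctions and desmosomes, was at 9.13, 8.90 and 9.13. The values of mice 1 and 3 were identical, a tie that may affect the SD of 0.14.

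Ctnna1, the alpha-catenin of epithelia, was at 13.31, 13.31 and 13.44 on a probe set of the kind that can also bind other transcripts. A second Ctnna1 probe set without that flag was at 12.66, 12.67 and 12.52, so the gene was well above background by either, and another was at 6.20, 6.63 and 6.17. Which mouse was highest changed between these probe sets. The neuronal alpha-catenin gene Ctnna2 and the heart and testis gene Ctnna3 were below background in all mice. Both probe sets of Ctnna3 were below it. Ctnnd1, which encodes p120-catenin, the stabiliser of cadherins at the membrane, was at 8.91, 8.82 and 9.21. A second Ctnnd1 probe set gave another order of mice, at 5.87, 6.40 and 6.04. Its relative Pkp4, also known as p0071, was at 10.58, 10.53 and 10.71, and the second Pkp4 probe set was also highest in mouse 3, at 10.29. Ctnnd2, the neuronal delta-catenin gene, was below background. Over the 7 genes of catenins and desmosomes above background no 2-fold range was found and the SD had a median of 0.0921, against 0.157 over all 10609 genes above background.

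The upstream sequence of these genes is shown for a pair of catenins and a pair of type II cadherins, chosen so that each pair holds a gene above background and one below it. RefSeq sequence (assembly GRCm38.p6) of the 250 bases before the most upstream start was found for 28 of the 68 members, and the letters CG, which read the same on both strands, are in capitals. CG occurred in 92.1% of all 32851 upstream regions of that table, with a median of 6 per region. Ctnnb1 lies at chr9:120933150-120933399 on the plus strand with 35 CG, and Ctnna3, below background, at chr10:63429848-63430097 on the plus strand with 36 CG. Cdh6, above background, lies at chr15:13173676-13173925 on the minus strand with 6 CG, and Cdh10, below background, at chr15:18820079-18820328 on the plus strand with 2 CG.
Ctnnb1: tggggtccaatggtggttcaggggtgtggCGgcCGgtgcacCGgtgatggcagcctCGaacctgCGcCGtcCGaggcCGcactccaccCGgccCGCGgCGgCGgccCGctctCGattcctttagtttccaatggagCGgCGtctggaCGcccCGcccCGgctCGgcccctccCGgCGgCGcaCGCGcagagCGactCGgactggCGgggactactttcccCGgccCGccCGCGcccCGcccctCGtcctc
Ctnna3: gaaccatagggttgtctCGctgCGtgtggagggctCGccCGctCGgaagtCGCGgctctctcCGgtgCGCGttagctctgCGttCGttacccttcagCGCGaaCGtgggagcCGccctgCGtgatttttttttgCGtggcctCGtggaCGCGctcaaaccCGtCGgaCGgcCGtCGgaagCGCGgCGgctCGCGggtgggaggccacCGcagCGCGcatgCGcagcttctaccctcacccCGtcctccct
Cdh6: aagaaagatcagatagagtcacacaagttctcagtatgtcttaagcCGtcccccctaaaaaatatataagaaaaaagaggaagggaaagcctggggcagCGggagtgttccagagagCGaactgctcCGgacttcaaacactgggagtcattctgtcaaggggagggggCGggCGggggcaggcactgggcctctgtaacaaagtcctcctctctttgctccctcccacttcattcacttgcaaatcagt
Cdh10: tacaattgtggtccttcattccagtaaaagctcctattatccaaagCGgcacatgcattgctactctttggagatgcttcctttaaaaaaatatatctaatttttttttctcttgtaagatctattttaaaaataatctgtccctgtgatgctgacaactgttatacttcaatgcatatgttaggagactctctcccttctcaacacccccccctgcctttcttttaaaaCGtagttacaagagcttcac
Both catenin regions exceeded at least 97.0% of the table's regions in CG number, although only Ctnnb1 was above background in glomeruli. Over the members with such sequence, the 8 above background in all mice had a median of 21.5 CG and the 18 below it in all mice a median of 9 CG. The same difference was seen over all genes, with medians of 16 CG in 8641 genes above background and 5 CG in 4935 genes below it, so it was not particular to these members.

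Of the desmosomal genes, the plaque genes were measured and the desmosomal cadherins were not above background in all mice. Dsp encodes desmoplakin, which links the desmosome to intermediate filaments, and was at 8.05, 8.51 and 8.39 on a probe set that may read several transcripts. The probe sets that stood for Jup, Ctnnd1 and Pkp2 were of the same kind. A second Dsp probe set gave another order of mice (7.28, 7.22 and 7.56) and the third was below background. Pkp2, the plakophilin of heart and simple epithelia, was at 9.21, 9.23 and 9.08, and a second probe set followed at 8.09, 8.25 and 7.90. The cadherin partners of these plaque proteins were Dsg2, none of whose 6 probe sets was above background in all mice (the brightest passed it in mice 2 and 3), and Dsc2, below background in all mice on both probe sets. Of 9 further desmosome genes with a probe set of their own, among them other desmogleins, desmocollins and plakophilins, Perp was above background in all mice, at 4.79, 4.88 and 4.33.

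Among the cadherins, the endothelial gene Cdh5 was above background in every mouse, with an SD of 0.13. Cdh5 encodes VE-cadherin, the adherens junction cadherin of endothelium, and was at 10.91, 10.82 and 10.65 in mice 1, 2 and 3. A second Cdh5 probe set was above background in mice 1 and 2 only. Like Cdh5, 7 of the 10 endothelial marker genes were highest in mouse 1, against 35.1% of all genes above background. In mouse 1 the median of the 10 exceeded the mean of the other mice by 0.18. Of the other markers, 1 was highest in mouse 2 and 2 in mouse 3, and the endothelial protocadherin gene Pcdh12 was also highest in mouse 3. The part of endothelial content in the order of mice for Cdh5 was not tested.

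Cdh2, which encodes N-cadherin, was at 7.19, 7.48 and 7.25, and Cdh4, which encodes R-cadherin of developing kidney and retina, at 3.63, 3.94 and 3.80. Both were highest in mouse 2, but a second probe set of each was highest in mouse 3. Their SDs of 0.15 were below the median SD of the 200 genes nearest in level (0.190 for Cdh2 and 0.238 for Cdh4). Cdh13 encodes T-cadherin, a cadherin held by a lipid anchor in place of a membrane span, which binds adiponectin on vessels. It was at 3.47, 3.86 and 3.37 and close to background, and it was not above background with the 99th percentile as threshold or with the mean over its 4 probe sets. Cdh3, the gene of P-cadherin, which has been described at the slit diaphragm, was below background in all mice on both of its probe sets. Cdh3 and Cdh1 are neighbours on chromosome 8 in the RefSeq table, and Cdh1 was above background.

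Cdh1, Cdh16 and Cdh6, cadherins of tubular epithelium, were lowest in mouse 1 and highest in mouse 2, with a 2-fold range each. Cdh1, which encodes E-cadherin of tubular and other epithelia, was at 6.35, 8.12 and 7.45 in mice 1, 2 and 3, a 3.42-fold range. Cdh16, which encodes the kidney-specific Ksp-cadherin of tubule cells, was at 8.44, 9.99 and 9.42, a 2.93-fold range. Each was read by 1 probe set. Cdh6, which encodes the K-cadherin of developing nephron and proximal tubule, was at 3.92, 4.92 and 4.18, a difference of 1.001 on the log2 scale, just at the threshold of a 2-fold range. Its other probe set was below background in all mice. These 3 genes are described together because they share this order, so the shared order is not itself a result. Cdh2, Cdh4 and Dsp had the same order of mice with smaller ranges, although a second probe set of each was highest in mouse 3. Over all members above background, 6 of 25 (24%) were lowest in mouse 1 and highest in mouse 2, against 14.9% of all genes above background (1.45% with a 2-fold range).

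Marker genes of nephron segments beyond the proximal tubule (loop, distal tubule, collecting duct) were measured beside these cadherins. Of 12 such genes, 6 passed background in every mouse, of which 5 were lowest in mouse 1 and 5 highest in mouse 2. Their summed level on the linear scale was 6867, 15878 and 10622 in mice 1, 2 and 3, of which Umod, the uromodulin gene of the thick ascending limb, made up 82.4%, 76.2% and 80.2%. Between mice 2 and 1 the log2 difference was 1.77 for Cdh1, 1.55 for Cdh16 and 1.001 for Cdh6, against a median of 1.34 for these markers. Between mice 3 and 1 it was 1.10 for Cdh1, 0.97 for Cdh16 and 0.26 for Cdh6, against a median of 0.67. The other 6, among them the distal convoluted tubule gene Slc12a3 and the collecting duct water channel genes Aqp2 and Aqp3, did not pass background in every mouse.

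Proximal tubule genes had another order, with all 11 genes above background highest in mouse 3 and a median difference of 2.96 between mice 3 and 1. Cdh6, although a cadherin of proximal tubule too, did not share that order and differed by 0.26 between mice 3 and 1. None of the 8 cadherins above background was highest in mouse 3, against 36.3% of all genes above background, but Cdh2 and Cdh4 were when their probe sets were averaged. The bacterial and phage spike controls were also highest in mouse 2, in 18 of 18 probe sets, with a median of 0.54 above the mean of the other mice. The 3′ minus 5′ difference of the actin control was 1.49, 1.81 and 2.05 in mice 1, 2 and 3, and that of Gapdh was 0.48, 1.08 and 0.92. The part of tubule content, array signal or RNA quality in the order of the mice for these cadherins was not tested.

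**Figure D2:**
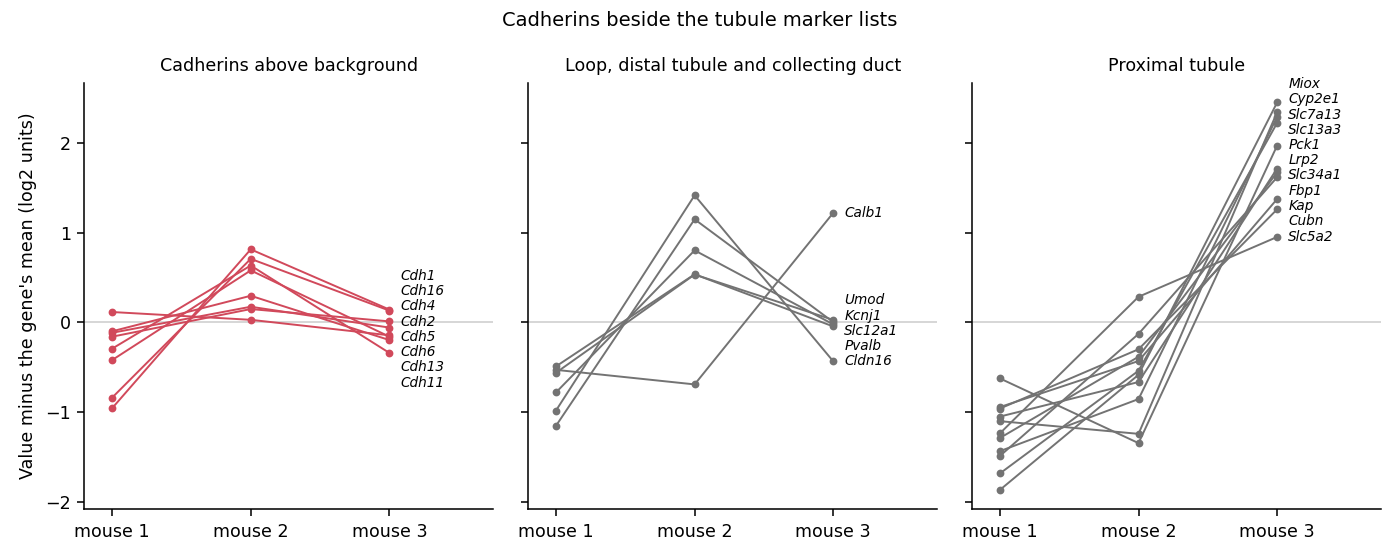
Value of each gene in mice 1, 2 and 3 minus the gene's mean (log2 units), with 1 line per gene, for the 8 cadherins above background, the 6 loop, distal tubule and collecting duct genes and the 11 proximal tubule genes above background. Most cadherin lines peak in mouse 2, as do those of 5 of 6 distal genes, while all proximal tubule lines peak in mouse 3.

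Cdh11, the OB-cadherin of mesenchymal cells, was at 5.23, 6.16 and 5.18, so mouse 2 stood above mice 1 and 3 by nearly 1 log2 unit. The second Cdh11 probe set was also highest in mouse 2 (2.62, 3.49 and 2.98). Of 5 arteriolar smooth muscle genes above background 4 were likewise highest in mouse 2, with a median of 0.39 over the mean of the other mice. Of the 7 mesangial marker genes 2 were highest in mouse 2, with a median difference of -0.034 from the mean of the other mice. The part of either cell type in the level of Cdh11 was not tested. Over the cadherins as a whole, 7 of 8 were highest in mouse 2, against 28.6% of all genes above background, and 5 of 8 were lowest in mouse 1, against 33.3%. The other 3 (Cdh5, Cdh11 and Cdh13) were lowest in mouse 3, against 31.7%. When all probe sets of a gene were averaged, 4 of 7 cadherins were highest in mouse 2, Cdh2 and Cdh4 in mouse 3 and Cdh5 in mouse 1. The remaining 13 cadherins, Cdh3, Cdh7, Cdh8, Cdh9, Cdh10, Cdh15, Cdh17, Cdh18, Cdh19, Cdh20, Cdh22, Cdh23 and Cdh26, were below background in all mice. Many of these are known from neurons, muscle, intestine or the inner ear.

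Of the 12 protocadherins encoded outside the gene clusters, 4 were above background in all mice. Pcdh12, the endothelial protocadherin once called VE-cadherin-2, was at 9.74, 9.67 and 10.23 in mice 1, 2 and 3. It was highest in mouse 3, and its other probe sets, above background in 2 mice each, were highest in mouse 3 too. Pcdh1, a protocadherin of epithelia and vessels, was at 7.26, 6.79 and 7.60. Pcdh17 was at 8.85, 8.74 and 8.84 and Pcdh18 at 9.30, 9.35 and 9.21, both protocadherins of the delta-2 group best known from the nervous system.

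Pcdh17 and Pcdh18 had SDs of 0.06 and 0.07. Second probe sets of both were also above background in every mouse, at 7.90, 8.06 and 8.04 for Pcdh17 and 7.68, 8.10 and 7.86 for Pcdh18. Pcdh9 and Pcdh19 were above background in 2 mice each. The other 6, Pcdh7, Pcdh8, Pcdh10, Pcdh11x, Pcdh15 and Pcdh20, were below it in all mice, with 0 of the 6 probe sets of Pcdh10 above background. Among all 10 protocadherins above background, 6 were highest in mouse 3, against 36.3% of all genes above background.

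**Figure D3:**
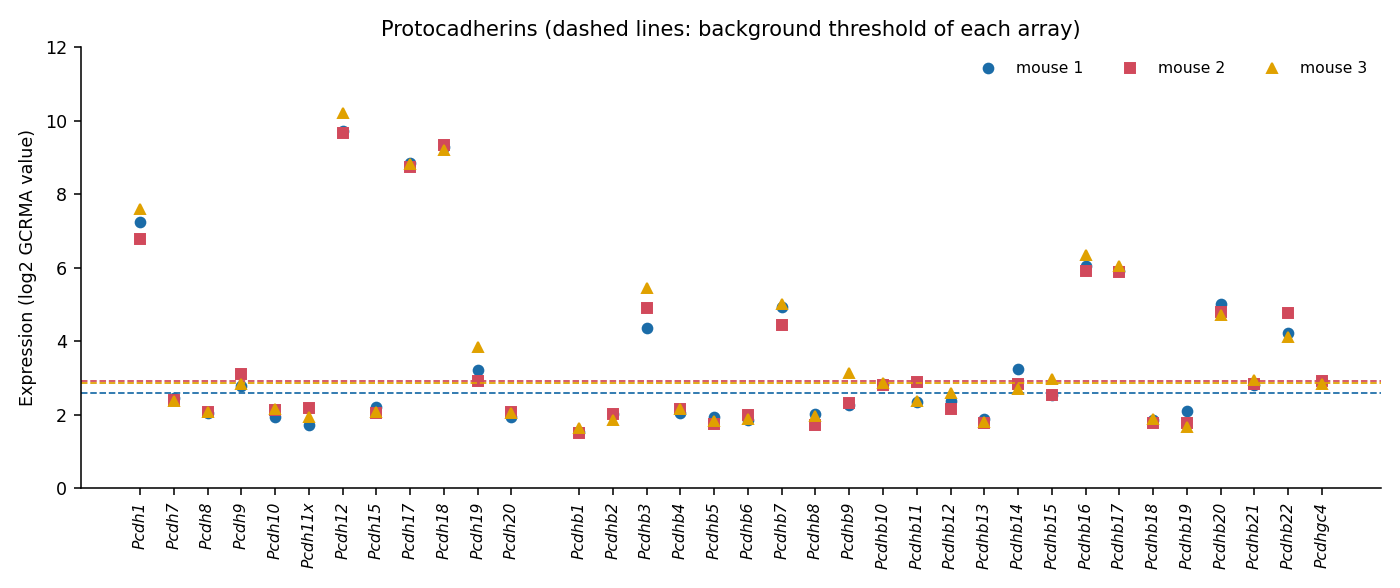
Expression (log2 GCRMA value) of all 35 protocadherin genes, unclustered genes on the left and clustered genes on the right, with 1 point per mouse and a dashed line at the background threshold of each array. Pcdh1, Pcdh12, Pcdh17, Pcdh18 and 6 genes of the beta cluster lie above the lines in all 3 mice.

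The clustered protocadherins lie in tandem on chromosome 18 and are known for giving single neurons different surface identities. Of 23 clustered genes with a probe set of their own, 22 were of the beta cluster, whose genes do not share constant exons, and 6 of these 22 were above background in all mice. They were Pcdhb16 (6.05, 5.92 and 6.34 in mice 1, 2 and 3), Pcdhb17 (5.90, 5.88 and 6.04), Pcdhb20 (5.01, 4.79 and 4.73), Pcdhb22 (4.22, 4.77 and 4.12), Pcdhb7 (4.93, 4.45 and 5.01) and Pcdhb3. Pcdhb3 was at 4.36, 4.91 and 5.45, a 2.12-fold range with mouse 3 highest, and was read by 1 probe set. Of the 6 genes only Pcdhb16 and Pcdhb17 are direct neighbours in the RefSeq table. Genes of this cluster are alike in sequence, so their probe sets may share signal.

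A further 6 clustered genes, Pcdhb9, Pcdhb10, Pcdhb14, Pcdhb15, Pcdhb21 and Pcdhgc4, were above background in 1 or 2 mice, and 11 in none (Pcdhb1, Pcdhb2, Pcdhb4, Pcdhb5, Pcdhb6, Pcdhb8, Pcdhb11, Pcdhb12, Pcdhb13, Pcdhb18 and Pcdhb19). The alpha cluster was read by 6 probe sets that list 9 to 14 genes each, and these were not assigned to any gene. Of these 6 probe sets, 5 were below background in all mice and 1 was above it in mouse 1 only.

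The median SD over the mice was 0.390 for the 8 cadherins, 0.257 for the 10 protocadherins and 0.0921 for the 7 catenin and desmosome genes, and 0.204 for the 25 members against 0.157 for all genes above background. The last order turned without mouse 2 (0.0994 for members against 0.135 for all genes) and with no filter on dim genes (0.134 against 0.145). None of these medians was matched for level. For 6 of the 8 cadherins the SD exceeded the median of the 200 genes nearest in level, which held for 13 of the 25 members. By construction a gene is about as likely to exceed such a median as not, so the count of members is near the share over all genes. A 2-fold range was found in 4 of the 25 members (Cdh1, Cdh16, Cdh6 and Pcdhb3), against 5.94% of all genes above background. Without mouse 1 no member had a 2-fold range, and without mouse 2 only Cdh1 and Pcdhb3 did, while the share over all genes was 3.01% and 3.43%.

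Excess variance between mice was tested by comparing the variance of a gene with the distribution fitted over all 10609 genes above background with limma, with Benjamini-Hochberg adjustment over all of them. No member and no other gene (0%) passed at an adjusted p of 0.05, and the lowest adjusted p of any gene was 0.469. At an unadjusted p under 0.05 by the same limma test there were 2 of 25 members, Cdh16 (adjusted p = 0.707 by limma) and Cdh1 (adjusted p = 0.824 by limma), against 4.66% of all genes. An adjusted p above the threshold does not show that the mice were alike. The distribution was fitted to these same genes over 3 mice, so only a very large spread could pass. The proximal tubule gene Miox, with a range of 4.32 log2 units, had an adjusted p of 0.601 by limma.

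**Figure D4:**
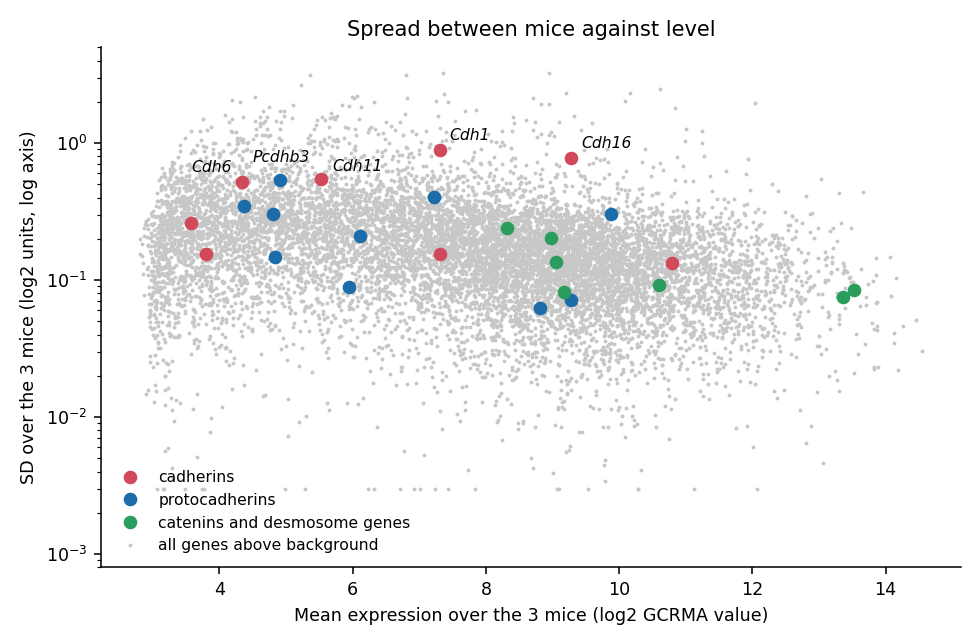
SD over the 3 mice (log2 units, log axis) against mean expression (log2 GCRMA value) for the 25 members above background, coloured by family, and for all 10609 genes above background in grey, with SDs under 0.003 drawn at 0.003. Cdh1 and Cdh16 lie in the upper part of the cloud, at the 98.0th and 97.5th percentile of SD, where the highest SD is 3.25. The catenins lie lower within the cloud.

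Other genes of cell junctions gave the setting of these members. Among 31 junction partners, 28 passed background in every mouse, their SD had a median of 0.125, and none passed the limma test. Afdn, which encodes afadin, the actin linker of nectins, was at 9.72, 9.79 and 9.52 in mice 1, 2 and 3. The nectin genes Nectin2 (8.31, 8.53 and 8.16) and Nectin3 (9.04, 9.17 and 9.16) encode adhesion proteins that act beside cadherins. Nectin4, at 4.33, 4.96 and 3.71, had a 2-fold range, alone among the 28. Among 16 more distant relatives of cadherins, 6 passed background in every mouse. Their SD had a median of 0.173 and none had a 2-fold range. Fat1, which encodes a giant atypical cadherin of the slit diaphragm, was at 12.32, 12.16 and 11.94, Fat4 at 8.37, 8.38 and 8.41, its ligand gene Dchs1 at 4.54, 4.59 and 4.11, and the planar polarity gene Celsr2 at 3.96, 4.27 and 4.12.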

How the data were processed

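Glomerular RNA of 3 FVB mice was measured, with 1 Affymetrix 3′ expression array per mouse and replicate numbers taken from the sample titles. The authors deposited log2 expression values made with GCRMA, per the submitters' processing notes, with the version not given in the sources used here. The range of the values, 0.67 to 14.76, is the basis for the log2 scale. There were 0 unused columns of per-sample values. The sources used here do not say which arrays were normalised together. Ties between 2 arrays, found for 2.18% to 2.49% of probe sets per pair, may affect SDs. Of 45101 probe sets, 34945 had 1 gene, 932 had several and were not used, 9160 had none listed and 64 were controls. The brightest probe set stood for the 9010 genes with several. All 68 members matched the reference gene table by gene identifier. The excess variance test used limma 3.58.1 in R 4.3.3 (a robust fit with a trend on level, upper tail, threshold 0.05) and was tested on simulated data. Every member above background could be named with its values, and other genes were the first 4 of their list above background. Dsg2, below background in 1 mouse, was described after its values were seen. Slc12a3, Aqp2 and Aqp3, not above background in every mouse, were named outside this rule. The members, gene lists and tests were chosen with earlier results of these data known. Alternatives were another background percentile, no filter, other probe set rules, 2 other normalisations, a simpler variance fit and each mouse left out. The number of arrays and signal over background limit the precision.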

Additional observations from a re-analysis of the deposited data

How the results depend on the processing

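No member passed the limma test under any of the 10 alternative settings, and neither did any other gene. As the test could call only a very large spread, the same count in each setting adds little. At an unadjusted p under 0.05 there were 0 to 4 members, and 300 to 658 of all genes, over these settings. The number of members with a 2-fold range was 3 to 5 under the settings that kept all 3 mice. With 1 mouse left out it was 0 to 3, as a range over fewer mice is smaller by construction. Quantile normalisation put Cdh11 in this set in place of Cdh6, while median centring added Cdh11, no filter added Dsg2, and averaging the probe sets of a gene removed Cdh6. With all 3 mice kept, only 3 settings change values (averaged probe sets and 2 normalisations, of which Cdh1 and Cdh16, with 1 probe set each, are touched by the normalisations alone), and Cdh1, Cdh16, Cdh6 and Cdh11 were highest in mouse 2 in each. Of the 24 members tested in every such setting, 16 kept the same highest mouse. The median SD of members was below that of all genes without mouse 2 and with no filter. No paired analysis was possible because the series as used here has 1 group. Dim members such as Cdh13 and Cdh4 lie close to background, where the level limits what can be said of their spread.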
